A study of Mus musculus with 8 samples.

Results

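Ubiquitin ligase and deubiquitinase transcripts carrying N6-methyladenosine (m6A) peaks were described in the mouse macrophage line RAW264.7. Members were the genes that hold a peak on their own strand and whose symbol begins with Usp and a digit, Otud, Ube2, Ube3, Rnf, Trim, Fbxo, Fbxw, Fbxl, Herc or Klhl. There were 112 such genes among 4325 genes with a peak in any of the 4 lists, and they held 589 peaks. They fell into 30 RING ligases, 27 deubiquitinases, 19 F-box adaptors, 11 E2 enzymes, 11 TRIM ligases, 10 Kelch adaptors and 4 HECT ligases. The symbol rule follows names, so it takes in a few proteins that do not ligate or cleave ubiquitin, among them the splicing factor Usp39 and Ube2f, which conjugates Nedd8.

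Ubiquitin is passed from an E1 activating enzyme to an E2 conjugating enzyme and then, with the help of an E3 ligase, to a substrate protein. RING and TRIM ligases bring the charged E2 to the substrate, HECT ligases first take the ubiquitin onto themselves, and F-box and Kelch proteins hold substrates for cullin-based ligases. Deubiquitinases remove ubiquitin again, and in macrophages the balance of these steps sets the strength of signalling to NF-κB and interferon genes. The m6A mark is a methyl group on adenosines of messenger RNA, commonly found near stop codons, in 3′ UTRs and in long internal exons, and it can affect splicing, translation and decay.

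The cells were given TBP, TCP or TIP, each at 100 µM for 24 h, or were left untreated as the control. These compound names are abbreviations in the labels, which do not spell them out. Each condition has 1 library immunoprecipitated with an m6A antibody (MeRIP-seq) and 1 RNA input library, and the 4 lists of peaks from the immunoprecipitated libraries were analysed. The inputs are not used here.

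No condition was replicated, and no p-value is given for that reason. Each 95% interval in parentheses is an exact Clopper-Pearson interval unless said otherwise and covers counting error only. Read counts are not part of the lists. The sequencing depth is therefore unknown, and a gene without a peak is a gene where none was called. Fewer copies of a transcript and fewer marked copies cannot be told apart in these lists. The lists differed in length, with 6285 peaks in TBP, 6981 in TCP, 3034 in TIP and 4432 in control. Genes with a peak numbered 3136 in TBP, 3408 in TCP, 1795 in TIP and 2484 in control. Of 12 macrophage marker genes, 7 had a peak in TBP, 5 in TCP, 3 in TIP and 6 in control, and none of the T cell, B cell, epithelial, fibroblast or endothelial markers searched had a peak in any list.

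Peaks were found on 111 of the 379 RefSeq protein-coding genes that fit the symbol rule, or 29.3% (24.8 to 34.2). The share over all other protein-coding genes was 19.2% (18.6 to 19.7), and the intervals did not overlap. RefSeq lists the remaining member, Rnf227, as non-coding. Coverage differed between classes. It was 42.2% of 64 deubiquitinase genes (29.9 to 55.2), 34.1% of 85 RING genes (24.2 to 45.2) and 15.7% of 70 TRIM genes (8.11 to 26.4). Expression of these genes was not analysed here, so its part in the shares was not tested.

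Members had a peak in 79 cases in TBP, 95 in TCP, 46 in TIP and 73 in control. These are 70.5%, 84.8%, 41.1% and 65.2% of the 112 members, beside 72.5%, 78.8%, 41.5% and 57.4% of all 4325 genes in the same order of lists. Ordered by members, the lists stood as they do by length, with TCP first and TIP last. They held 174 peaks in TBP, 205 in TCP, 82 in TIP and 128 in control. The mean number of peaks per gene with a peak was 2.2 in TBP, 2.16 in TCP, 1.78 in TIP and 1.75 in control, against 1.97, 2.02, 1.67 and 1.76 for other genes in those lists. In every list at least 48.1% of members with a peak had only 1, and Rnf213 had the most, tied with Klhl9 in TIP.

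Among the 27 deubiquitinases, 19 had a peak in TBP, 26 in TCP, 12 in TIP and 19 in control, and 9 had one in all 4 lists. Over all 4325 genes, 72.5% had a peak in TBP, 78.8% in TCP, 41.5% in TIP and 57.4% in control, and 29.8% had one in all 4. The counts of each class below are to be read beside these shares. Usp34, a large deubiquitinase that acts on axin in Wnt signalling, had 7 peaks in TBP, 6 in TCP, 3 in TIP and 3 in control. Its peak in exon 15 of 80, at chr11:23364063-23364287 (GRCm38, plus strand), was called in every list. Ranked within each list by the authors' score, with 1 as the best, that peak stood at 46 in TBP, 30 in TCP, 17 in TIP and 252 in control. The TIP rank is shared by 301 peaks, because that list has only 44 distinct scores, so it places the peak among the best-scored and no closer. Scores have no stated scale, and ranks from lists of different length show no change.

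Otud4, an OTU-family deubiquitinase known from repair of alkylated DNA, had 6 peaks in TBP, 6 in TCP, 2 in TIP and 3 in control. No single region of Otud4 was shared by all 4 lists, although 5 of its 9 regions lay within 900 bp of exon 21 of 21, outside the 3′ UTR. Usp9x, an X-linked deubiquitinase with many substrates, had 4 peaks in TBP, 5 in TCP, 2 in TIP and 3 in control. All but 1 of its 14 peaks lay within 400 bp of exon 35 of 45, at chrX:13156169-13156568. Usp47, which deubiquitinates DNA polymerase beta, had 3 peaks in each of the 4 lists and was named after its values were seen. Its 12 peaks formed 3 regions inside exon 20 of 28, at chr7:112092803-112093402, and each region was present in all lists. The lists' nearest-gene column names a different gene for all 12 peaks, which were given to Usp47 by their exon annotation.

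Usp14, a deubiquitinase of the proteasome, was 1 of 2 members with a peak in each compound list and none in control. It had 1 peak of 25 bp in each of TBP, TCP and TIP, all in the 3′ UTR. The 3 peaks lay side by side without overlapping, so they are 3 neighbouring bins and no position recurs. The lists' nearest-gene column names Thoc1 for them, and the strand of Usp14 could not be checked, so its assignment is uncertain. Usp16, which removes ubiquitin from histone H2A, had 1 peak in TBP, 1 in TCP, none in TIP and 1 in control, at ranks 1115, 618 and 766 of their lists. The TBP, TCP and control peaks formed a single 3′ UTR region.

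The 11 E2 enzymes had no peak in TIP. Genes with a peak numbered 6 in TBP, 8 in TCP, 0 in TIP and 8 in control, and peaks numbered 9, 10, 0 and 11 in those lists. Over all genes, 41.5% had a peak in TIP. With every list reduced to its 3034 best-scored peaks, E2 genes numbered 2 in TBP, 3 in TCP, 0 in TIP and 4 in control. Over all genes at that length, 1863 had a peak in TBP, 1871 in TCP, 1795 in TIP and 1889 in control. Peaks tied in score at the cut were picked at random, so counts at this length, here and below, can differ with another draw. By the nearest-gene column they numbered 6 in TBP, 6 in TCP, 0 in TIP and 4 in control.

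Ube2q1 had 3 peaks in TBP, 3 in TCP, none in TIP and 4 in control. Its strongest region, in the 3′ UTR at chr3:89782304-89782503 (plus strand), stood at rank 357 in TBP, 171 in TCP and 219 in control. It was the highest-ranked control region of any member without a peak in TIP. Ube2f, the E2 for Nedd8, had 2 peaks in TBP, 1 in TCP, none in TIP and 1 in control, all in the 3′ UTR. Ube2d3, an E2 that works with many RING ligases, had 1 peak in TBP, 1 in TCP, none in TIP and 1 in control. Ube2l3, a partner of HECT and RBR ligases, had a peak in control alone, at rank 3772 of 4432, and the nearest-gene column names Ccdc116 for it. That rank is the lowest score in control and is held by 661 peaks.

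Ube2n builds the lysine-63-linked chains used in Toll-like receptor signalling. It had 1 peak in TBP and none in TCP, TIP or control. The peak spans 25 bases of the 5′ UTR at chr10:95515170-95515194 (plus strand), bases 9 to 33 from the gene's start. It is the only peak of an E2 enzyme in a 5′ UTR. It is shown because its sequence lies within the RefSeq promoter sequences, and no other peak sequence could be printed. The sequence is from RefSeq (GRCm38.p6).

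Ube2n peak: ggAGACAagagcagaggccGAACTc

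Capitals mark AGACA and GAACT, which are forms of the m6A consensus known as DRACH, an AC preceded by a purine and followed by any base but G, with any base but C in front. The 18 forms of 5 bases were searched on the transcript strand. Of 32851 windows at the same position in the RefSeq promoter table, 31.4% held at least 1 form and 5.32% held at least 2. The peak had the lowest score in TBP, shared with the other peaks of a group of 909, at rank 5377 of 6285.

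All 4 HECT ligases among the members had a peak in every list, beside 29.8% of all genes. In no other class did all members have one. Peaks numbered 16 in TBP, 16 in TCP, 10 in TIP and 9 in control. Herc1, a giant HECT ligase, had 7 peaks in TBP, 5 in TCP, 4 in TIP and 3 in control, all but 1 in exons outside UTRs. Ube3a, the ligase lost in Angelman syndrome in humans, had 5 peaks in TBP, 6 in TCP, 3 in TIP and 4 in control. Its 18 peaks were all in exons, 6 of its 8 regions lay in exon 4 of 9 at chr7:59276032-59276956, and 3 of these were called in all 4 lists. Herc2, a ligase of the DNA damage response, had 2 peaks in TBP, 4 in TCP, 2 in TIP and 1 in control, and a region in its 3′ UTR was called in every list. The nearest-gene column names Oca2 for 8 of its 9 peaks, among them all those in TBP, TIP and control. The presence of Herc2 in those lists thus rests on the assignment used here.

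Among the 30 RING ligases, 22 had a peak in TBP, 22 in TCP, 9 in TIP and 15 in control. Rnf213, a very large ATPase and ligase that marks intracellular bacteria and is linked to moyamoya disease in humans, held the most peaks of any member. It had 15 peaks in TBP, 11 in TCP, 6 in TIP and 10 in control. These formed 19 regions, 11 of them in exon 28 of 67, which were spread over 2875 bp at chr11:119440364-119443238. Of the 19 regions, 4 were called in all lists, 3 of them in exon 28 and 1 in the 3′ UTR. The 3′ UTR region stood at rank 362 in TBP, 398 in TCP, 318 in TIP and 412 in control, and the nearest-gene column names A930037H05Rik for it.

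Rnf168, which ubiquitinates histone H2A at DNA breaks, had 2 peaks in TBP, 3 in TCP, 2 in TIP and 2 in control. A pair of regions in its last exon recurred in all 4 lists. Rnf103, a ligase of the endoplasmic reticulum, had 2 peaks in TBP, 4 in TCP, 1 in TIP and 2 in control, all in the 3′ UTR. Rnf14 had a peak in control alone, at rank 2938 of 4432. Together with Ube2l3 it makes 2 members of this kind, or 1.79% (0.217 to 6.3), beside 3.77% of all genes.

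Among the 11 TRIM ligases, 9 had a peak in TBP, 10 in TCP, 7 in TIP and 8 in control. In all 4 lists 7 had one, beside 29.8% of all genes. Trim33, a ligase that acts on Smad4, had 2 peaks in TBP, 4 in TCP, 2 in TIP and 2 in control, and its region at chr3:103353846-103353945 in the 3′ UTR was called in each list. Trim27, a partner of the retromer, had 2 peaks in every list, yet no region of it was shared by all 4. Trim59 had 3 peaks in TBP, 4 in TCP, none in TIP and 1 in control, all within 1100 bp of its last exon. Trim25, which activates the viral RNA sensor Rig-I, was named after its values were seen. It had 2 peaks in TBP, 1 in TCP, 1 in TIP and 2 in control, and a shared 3′ UTR region stood at rank 432 in TBP, 307 in TCP, 356 in TIP and 418 in control.

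Among the 19 F-box adaptors, 12 had a peak in TBP, 16 in TCP, 8 in TIP and 13 in control. Fbxl5, the iron-sensing adaptor that targets Irp2, had 3 peaks in TBP, 3 in TCP, 3 in TIP and 2 in control, all in exon 9 of 11. Fbxl14, which targets Snail, had 3 peaks in TBP, 3 in TCP, 1 in TIP and 2 in control. Fbxw2 had 2 peaks in TBP, 6 in TCP, 1 in TIP and 2 in control, and 7 of its 11 peaks were in the 5′ UTR. They were among 10 such peaks of the F-box class, with 2 more on Fbxo33 and 1 on Fbxw7. The 5′ UTR share of the class was 11.0% (5.4 to 19.3), against 3.86% (3.6 to 4.14) for all other genes. These shares pool the 4 lists, so a site called in several lists counts each time. The class share rests mostly on Fbxw2, and it was not computed without that gene.

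Among the 10 Kelch adaptors, 7 had a peak in TBP, 9 in TCP, 6 in TIP and 6 in control. Klhl9, an adaptor that acts on Aurora B in mitosis, had 7 peaks in TBP, 6 in TCP, 6 in TIP and 5 in control. All 24 peaks lay in its only exon, within 1350 bp at chr4:88720342-88721691 (minus strand), and 4 of its 8 regions were called in every list. Klhl11 had 5 peaks in TBP, 5 in TCP, 5 in TIP and 4 in control, with 3 of 6 regions in every list. Klhl25, which targets the translation repressor 4E-BP1, had none in TBP, 3 in TCP, 1 in TIP and 2 in control. Klhl30 was the other member with a peak in each compound list and none in control, with 1 peak in each of TBP, TCP and TIP at ranks 3788, 3393 and 2704. The TIP rank is the lowest score of that list and is held by 331 peaks. These 3 peaks shared a single region of 50 bp at chr1:91353861-91353910. The 2 members of this kind were 1.79% of the 112 (0.217 to 6.3), beside 3.54% of all genes.

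**Figure D1:**
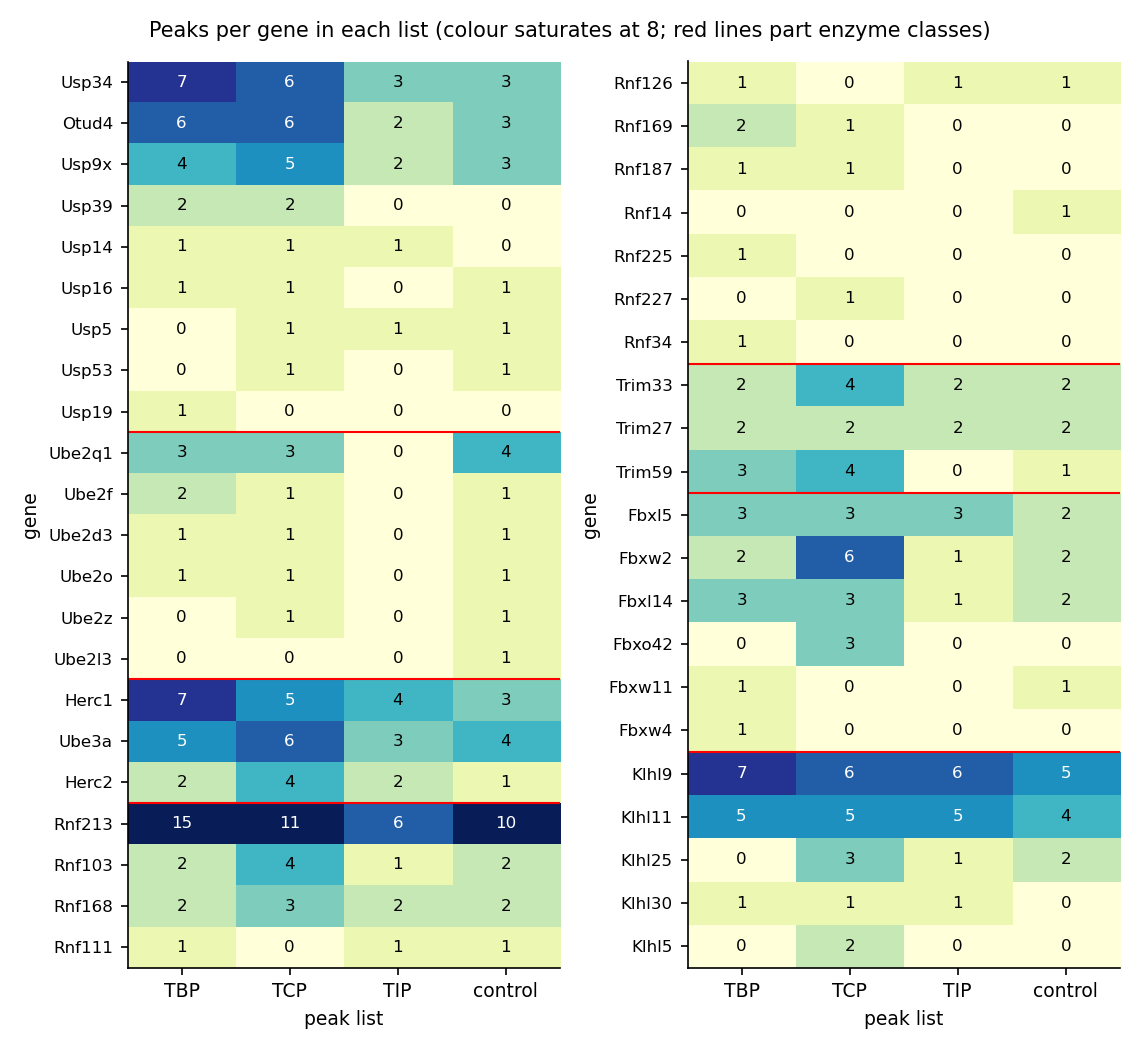
Number of peaks in each list (columns, TBP, TCP, TIP and control) for named genes (rows), grouped by enzyme class between red lines; darker cells hold more peaks. Rnf213 has the most, 15 in TBP, and the E2 genes are all at 0 in TIP.

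By position within the transcript, a smaller share of member peaks than of other peaks lay in 3′ UTRs in each list. The 3′ UTR share in TBP was 36.2% for members (29.1 to 43.8) and 50.9% for other genes (49.6 to 52.2). In TCP it was 37.1% for members (30.4 to 44.1) and 48.6% for other genes (47.4 to 49.8). In TIP the shares were 26.8% for members (17.6 to 37.8) and 49.2% for other genes (47.3 to 51.0), and in control they were 35.9% (27.7 to 44.9) and 51.2% (49.7 to 52.7). The intervals did not overlap in any list. Exons outside UTRs held 59.8% of member peaks in TBP, 59.0% in TCP, 70.7% in TIP and 61.7% in control, against 45.3%, 47.5%, 47.3% and 44.7% for other genes.

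Peaks of a gene are not independent, and the 6 members with most peaks weigh heavily here. Without those 6, the members' 3′ UTR share was 46.9% in TBP (38.0 to 55.9), 44.0% in TCP (36.3 to 51.9), 34.5% in TIP (22.2 to 48.6) and 43.4% in control (33.5 to 53.8). Each interval overlapped that of other genes. The other genes kept those of their own with most peaks, so this comparison is not like for like. With every gene given equal weight, the mean share per member was 44.7% in TBP, 45.1% in TCP, 32.8% in TIP and 42.8% in control. For other genes it was 57.8%, 55.4%, 54.9% and 56.8%. The share of members with any 3′ UTR peak was 54.4% in TBP (42.8 to 65.7), against 67.6% of other genes (65.9 to 69.3), and it was 50.7% in control (38.7 to 62.6), against 64.8% of other genes (62.8 to 66.7). In TIP it was 41.3% of members (27.0 to 56.8), against 61.9% of other genes (59.6 to 64.2). In TCP, where alone the intervals overlapped, it was 56.8% of members (46.3 to 67.0), against 65.3% of other genes (63.7 to 67.0).

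The classes differed among themselves in this respect. Over the 4 lists pooled, in which a site called in several lists counts each time, the 3′ UTR held 70.0% of E2 peaks (50.6 to 85.3). It held 42.1% of TRIM peaks (29.1 to 55.9), 42.0% of RING peaks (33.7 to 50.7), 37.0% of deubiquitinase peaks (29.4 to 45.2) and 35.2% of F-box peaks (25.4 to 45.9). HECT ligases had 11.8% (4.44 to 23.9) and Kelch adaptors 13.2% (6.23 to 23.6), against 49.9% for all other genes (49.2 to 50.6). Herc1, Ube3a and Klhl9 had no 3′ UTR peak at all, and these classes have few genes. Of the exon peaks of members, the share in the last exon was 43.3% in TBP, 44.2% in TCP, 42.1% in TIP and 43.6% in control, against 35.5%, 33.1%, 34.4% and 36.3% for other genes. The members' intervals overlapped those of other genes in TBP, TIP and control, and in TCP the members' interval (35.1 to 53.5) lay above that of other genes (31.4 to 34.8). The only exon of a single-exon transcript counts as a last exon here. In TCP such transcripts held 10 of the 120 exon peaks of members, against 79 of 3109 for other genes. Whether the difference in TCP remains without them was not tested.

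**Figure D2:**
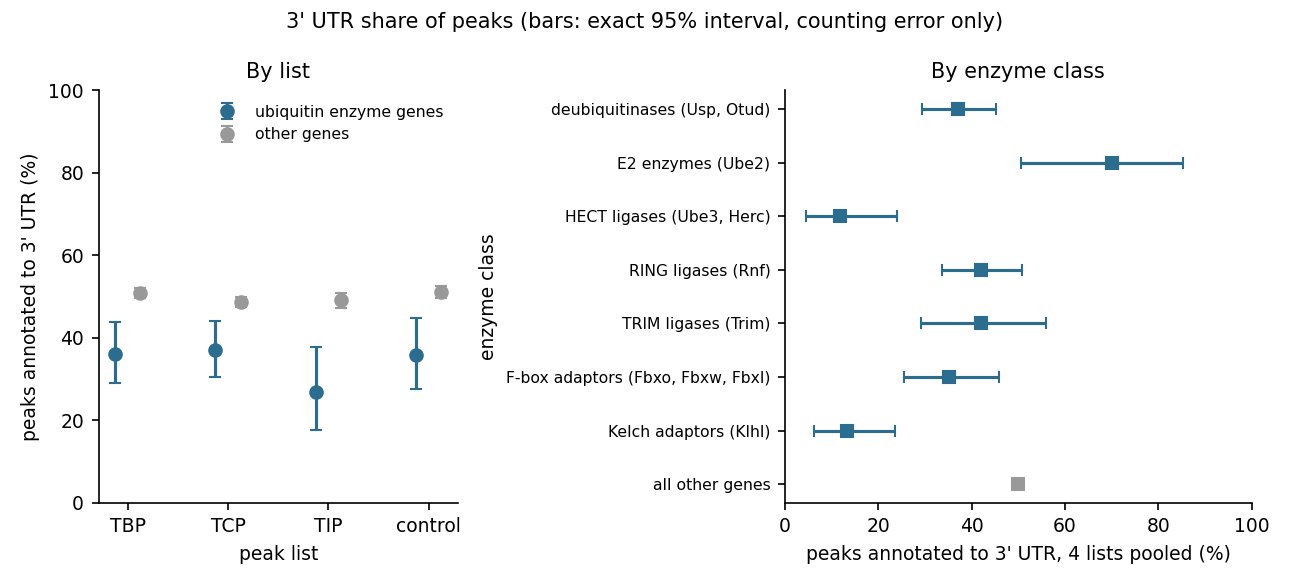
Share of peaks annotated to the 3′ UTR (percent), with exact 95% intervals for counting error. Left, members beside other genes in the TBP, TCP, TIP and control lists, where the members lie lower in each list; right, the enzyme classes over the 4 lists, running from 11.8% for HECT ligases to 70.0% for E2 enzymes.

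Gained members are those with a compound peak but no control peak, and lost members those with a control peak but no compound peak. The 3 comparisons share the control library. In TBP, 19 members were gained, or 17.0% of 112 (10.5 to 25.2), beside 25% of all genes, and 13 were lost, or 11.6% (6.33 to 19.0), beside 9.94%. In TCP, 28 members were gained, or 25% (17.3 to 34.1), beside 30.6% of all genes, and 6 were lost, or 5.36% (1.99 to 11.3), beside 9.25%. In TIP, 2 members were gained, or 1.79% (0.217 to 6.3), beside 7.63% of all genes, and 29 were lost, or 25.9% (18.1 to 35.0), beside 23.6%. Among these 6 counts, only the gain in TIP had an interval that excluded the share over all genes. With every list reduced to its 3034 best-scored peaks, 71 members had a peak, of which 5 were gained in TBP, 8 in TCP and 3 in TIP. Over all genes with a peak at that length, 16.9% were gained in TBP, 17.7% in TCP and 16.5% in TIP.

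Best-ranked among the members gained in TBP were Usp39, at rank 1797 of 6285, and Fbxw4 at 2299, followed by Rnf34 at 2528, Usp19 at 2789 and Rnf225 at 3126, a rank tied with that of Usp14. In TCP they were Rnf227 at 715 of 6981, Rnf169, a factor recruited to DNA breaks, at 1158, Klhl5 and Rnf187 at 2043, and Fbxo42 at 2397, tied with Usp39. Fbxo42 had 3 peaks in TCP and none in TBP, TIP or control. In TIP they were Usp14 and Klhl30 alone, at 2110 and 2704 of 3034, the latter with the lowest score of the list. None of these peaks stood in the best 10% of its list. The nearest-gene column names other genes for the peaks of Usp39, Rnf169 and Fbxo42.

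The lost members with the best-ranked control peak included, for TBP, Klhl25 and Usp53 at rank 1328 of 4432 and Usp5 and Ube2z at 1698. Usp5 takes apart free ubiquitin chains. For TCP they were Fbxw11, an adaptor for IκB, at 1149, Rnf126 at 1698, Rnf14 at 2938, and Rnf111 and Ube2l3 at 3772, the lowest score in control, tied with Ube2r2. For TIP they were Ube2q1 at 219, Usp16 at 766, Fbxw11 at 1149, and Usp53 and Ube2o at 1328. The highest-ranked lost peaks were thus those of TIP, the shortest list. For Usp5, Ube2z, Rnf126 and Fbxw11, and for 2 of the 3 peaks of Ube2o, the nearest-gene column names a different gene.

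**Figure D3:**
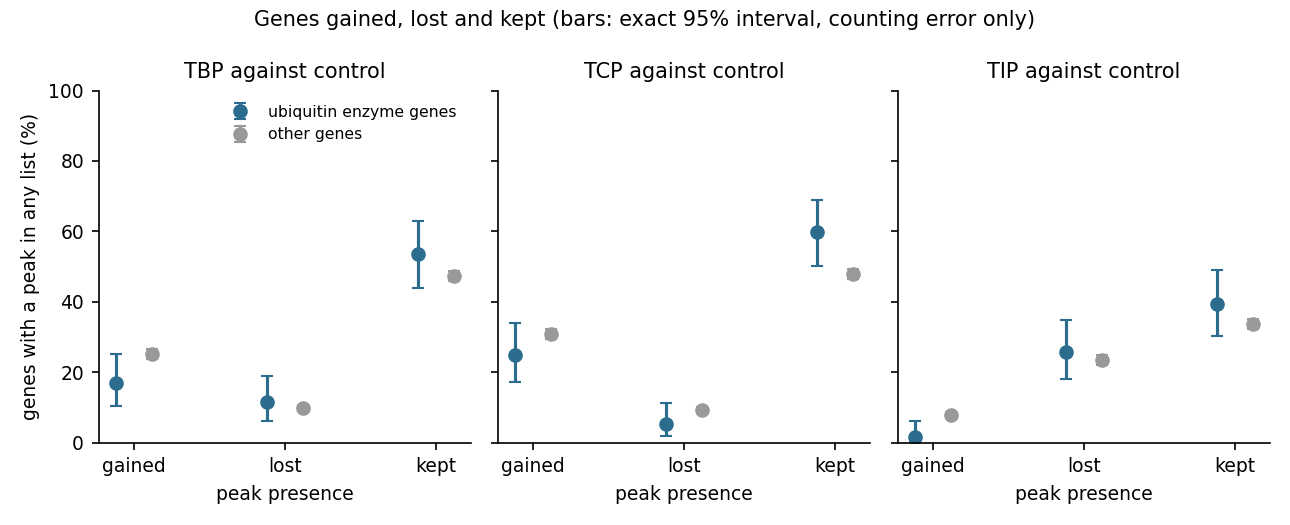
Share of genes with a peak in any list (percent) that were gained, lost or kept in TBP, TCP and TIP relative to control, for members beside other genes, with exact 95% intervals for counting error. In TIP, 1.79% of members were gained, against 7.79% of other genes.

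Dose and time were the same for the compounds, and their lists were compared over the 73 members with a control peak. TBP kept a peak on 60 of them, or 82.2% (71.5 to 90.2), TCP on 67, or 91.8% (83.0 to 96.9), and TIP on 44, or 60.3% (48.1 to 71.5). The share among other genes with a control peak was 82.7% in TBP, 83.7% in TCP and 58.9% in TIP, each within the members' interval. As shares of all 112 members, those kept were 53.6% in TBP (43.9 to 63.0), beside 47.5% of all genes, 59.8% in TCP (50.1 to 69.0), beside 48.2%, and 39.3% in TIP (30.2 to 49.0), beside 33.9%. On this second measure the interval excluded the share over all genes in TCP and included it in TBP and TIP. That measure also carries the share with a control peak, which was 65.2% of members beside 57.4% of all genes. The 3 pairs were compared with normal-approximation intervals for paired shares. TIP minus TBP was -21.9 points (-34.1 to -9.76), and TIP minus TCP was -31.5 points (-43.4 to -19.6). TCP minus TBP was 9.59 points (-0.574 to 19.8), an interval that includes 0. At equal list length TIP minus TBP was 1.75 points (-11.6 to 15.1) and TIP minus TCP was -5.26 points (-18.5 to 7.98), and both intervals include 0. List length and compound cannot be told apart in this design.

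By presence over the lists, 38 members had a peak in all 4, or 33.9% (25.3 to 43.5), beside 29.8% of all genes. A further 18 had a peak in TBP, TCP and control and none in TIP, or 16.1% (9.81 to 24.2), beside 12.9%. There were 11 members with a peak in TBP alone, or 9.82% beside 9.69% of all genes, and 20 with a peak in TCP alone, or 17.9% beside 14.4%. No member had a peak in TIP alone, which allows a share of up to 3.24%, beside 1.36% of all genes. Members in TBP alone included Rnf8 and Rnf20, ligases for histones, and Trim28, a corepressor of endogenous retroviruses. Those in TCP alone included Usp7, which deubiquitinates Mdm2, Rnf2, a Polycomb ligase, and Rnf4, which targets SUMO-modified proteins. These 6 were chosen after their values were seen, and each had 1 or 2 peaks.

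At the level of position, overlapping peaks on the same strand were merged into 306 regions in members. Of these, 49 were called in all 4 lists, or 16.0% (12.1 to 20.6), against 10.5% of 11277 regions in other genes (9.9 to 11.0). Regions of a gene are not independent, and Rnf213 and Klhl9 each supplied 4 of the 49. Regions called in only 1 list made up 55.6% in members (49.8 to 61.2) and 60.7% in other genes (59.8 to 61.6). Among exon regions of members 20.3% recurred in all lists (14.6 to 27.1), against 10.9% of their 3′ UTR regions (5.95 to 18), and these intervals overlap. Regions of other genes were not split in this way. Kelch regions recurred in 31.0% of cases (15.3 to 50.8) and HECT regions in 26.1% (10.2 to 48.4). Of the 9 recurring Kelch regions, Klhl9 supplied 4 and Klhl11 supplied 3. None of the 21 E2 regions could recur in all 4 lists, because no E2 enzyme had a peak in TIP.

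**Figure D4:**
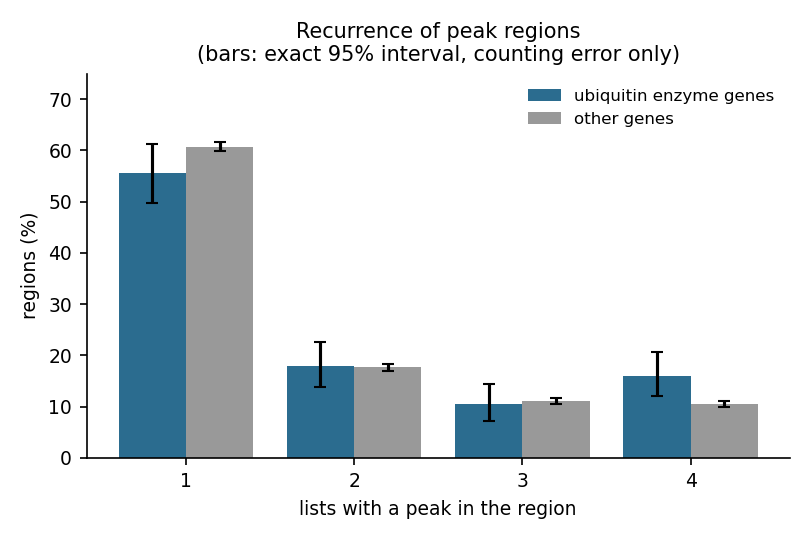
Share of merged peak regions (percent) by the number of lists in which they were called, for members and other genes, with exact 95% intervals for counting error. Regions in all 4 lists made up 16.0% in members and 10.5% in other genes.

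Of the 128 control peaks on members, 65.6% were overlapped by a TBP peak (56.7 to 73.8), 68.0% by a TCP peak (59.1 to 75.9) and 41.4% by a TIP peak (32.8 to 50.4). For other genes the overlapped share was 57.2% in TBP, 55.4% in TCP and 35.1% in TIP, and only for TCP did the intervals not overlap. Seen from the compound lists, 69.5% of the 82 TIP peaks on members overlapped a control peak (58.4 to 79.2), against 51.3% of TIP peaks on other genes (49.5 to 53.2). In TBP the share was 48.3% on members (40.6 to 56.0), against 39.9% on other genes (38.7 to 41.1), and in TCP it was 44.4% (37.5 to 51.5), against 35.2% (34.0 to 36.3). The intervals overlapped in TBP and not in TCP or TIP. None of the intervals on overlap allows for several peaks on the same gene. Rnf213 and Klhl9 each held 6 of the 82 TIP peaks.

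Other genes of the pathway, from lists chosen with earlier results known, were counted the same way. These counts are over RefSeq genes, for which no share per list was computed. In any list, 19.2% of the protein-coding genes outside the symbol rule had a peak. Of 12 ubiquitin and E1 genes, 4 had a peak in TBP, 1 in TCP, 0 in TIP and 1 in control, and 4 had a peak in any list. Cullin scaffolds and partners numbered 21, with a peak on 9 in TBP, 8 in TCP, 9 in TIP and 9 in control. Cand1, which exchanges substrate receptors on cullins, had 5 peaks in TBP, 3 in TCP, 4 in TIP and 5 in control. Keap1, the cullin adaptor for Nrf2, had 5 peaks in TBP, 4 in TCP, 3 in TIP and 4 in control. Of the 12 with a peak in any list, 2 were gained and 2 lost in TIP relative to control, beside 7.63% gained and 23.6% lost over all genes.

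Of 65 other ligases with a RefSeq entry, 26 had a peak in TBP, 31 in TCP, 15 in TIP and 17 in control, and 35 had a peak in any list. Relative to control, 10 of these 35 were gained and 1 lost in TBP, beside 25% gained and 9.94% lost over all genes. In TCP 14 were gained and 0 lost, beside 30.6% and 9.25%. In TIP 3 were gained and 5 lost, beside 7.63% and 23.6%. Birc6, a giant E2 and ligase hybrid, had 7 peaks in TBP, 9 in TCP, 3 in TIP and 6 in control. Of 27 other deubiquitinases, 12 had a peak in TBP, 13 in TCP, 9 in TIP and 12 in control, and 15 had a peak in any list. Vcpip1, a deubiquitinase that works with the p97 ATPase, had 8 peaks in TBP, 8 in TCP, 5 in TIP and 3 in control. Of 41 proteasome genes, 12 had a peak in TBP, 13 in TCP, 4 in TIP and 11 in control, and 21 had a peak in any list. Relative to control, 7 of these 21 were lost in TIP and 0 gained, beside 23.6% lost and 7.63% gained over all genes.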

How the data were processed

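RNA of RAW264.7 cells was immunoprecipitated with an anti-m6A antibody and fragments were selected by size on a gel, per the labels' protocols. Among the tools in the submitters' processing notes, which give no role or order, are HISAT2 2.1.0, HOMER 4.11, ChIPseeker 1.26 and Trim Galore 0.6.5, with mm10 and GRCm38 as builds. How peaks were called, at which threshold and against which input is not given in the sources used here. The authors deposited, for each immunoprecipitated library, peak positions, strand, annotation and 1 score per peak of no stated scale, which was used only to rank peaks within a list.

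The gene holding a peak on its strand came from the deposited exon annotation for 45.0% of 20732 peaks. For 37.6% it was the nearest gene, where that held the peak, and for 16.0% a RefSeq gene over the peak. It differed from the nearest-gene column for 23.0% of peaks, and 281 peaks had no gene. The strand of 4 members (Rnf139, Usp5, Usp14 and Usp39) could not be checked. Exon numbers are those of the deposited annotation. Overlap required at least 1 bp on the same strand, and the overlap step was tested on simulated data. Named genes were, per class, the 3 with most peaks, all with a peak in the compound lists only or in control only, and per compound the 5 gained and 5 lost with the best-ranked peak. Any others named were chosen for being first in a count, for having a sequence at hand or after their values were seen. The result for 1 gene that this rule takes is not reported here. Members and lists were chosen with earlier results of these data known. RefSeq's promoter table matched 88 of 112 members. Python 3.11.15, pandas 2.3.3 and SciPy 1.17.1 were used.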

Additional observations from a re-analysis of the deposited data

How the results depend on the processing

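No paired analysis was possible because each condition has 1 immunoprecipitated library and the labels carry no replicate numbers. Of 154 values recomputed under other settings, 122 stayed within the limits set. List length mattered most: with each list reduced to its 3034 best-scored peaks, members with a peak numbered 71 in any list, 47 in TBP and 54 in TCP, with 85 and 90 peaks and means of 1.81 and 1.67 per gene. Members gained then numbered 5 in TBP and 8 in TCP, beside 16.9% and 17.7% of all genes at that length. Members lost numbered 11 in TCP and 14 in TIP, beside 18.3% and 19.8% of all genes lost in those lists at that length. The kept share was 80.7% in TCP and 75.4% in TIP, TIP minus TBP turned to 1.75 points, TIP minus TCP fell short at -5.26 points, the TCP 3′ UTR share was 30.0%, and 54.0% of control peaks were overlapped in TIP. Next, only the better-scored peaks of each list were used, from its median score up. Member peaks then numbered 99 in TBP, 109 in TCP, 48 in TIP and 73 in control, with means of 1.8 in TBP and 1.7 in TCP. Of the 78 members with a peak then, 1 was gained in TIP, beside 8.7% of all genes, and 19 were lost there, beside 24.2%. By the nearest-gene column, 1 of 104 members was gained in TIP, beside 7.91% of all genes, and 8 were lost in TBP, beside 9.88%. Without the adaptor families 1 of 83 members was gained in TIP, beside 7.63% of all genes. Without peaks over 500 bp, TCP minus TBP was 11.0 points (0.518 to 21.4). When overlap had to cover 50% of the control peak, 56.2% were overlapped in TBP, 56.2% in TCP and 31.2% in TIP. Why these values moved was not tested, except that fewer peaks enter under the first 2 settings. Recomputing the kept shares and their differences under other settings, and the 3′ UTR share without the 6 members with most peaks or with genes weighted equally, was added after seeing the data. Without read counts or replicates, no value here shows the spread between cultures.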
